A study of Homo sapiens with 2 samples.

Results

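In A549 cells, a human lung adenocarcinoma line, the tags of 8 enzymes that make asparagine, proline, glutamine and cysteine or move amino groups were compared between a library labelled shRNA-SOX2 and a control library labelled shRNA-Con. The genes were *ASNS*, *PYCR1*, *ALDH18A1*, *GLUL*, *GOT1*, *GOT2*, *GPT2* and *CTH*. They were selected by their symbols from a table of 13137 genes, after the tag counts of the same libraries were known, so that the values below are a description and carry no test. All 8 were found in the table, and 7 of them had at least 20 tags in the libraries together, as did 10045 genes of the whole table.

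Both lines were polyclonal A549 cells that carried a short hairpin RNA (shRNA) under the doxycycline-inducible H1TetO promoter after lentiviral infection and puromycin selection. The hairpin was directed against *SOX2*, a transcription factor of stem cells, in A549-H1tetO-shRNA-SOX2 and was a scrambled sequence in A549-H1tetO-shRNA-Con. Both lines were kept in doxycycline for 4 days, and 1 library of each was profiled by digital gene expression, which counts short tags of polyadenylated RNA. The comparison asks which transcripts differ when *SOX2* is silenced. With 1 library per condition there was no replicate check, and the intervals given are 95% Clopper-Pearson intervals that cover counting error only.

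Asparagine synthetase transfers an amide group from glutamine to aspartate. Proline is built from glutamate, first by pyrroline-5-carboxylate synthase and then by pyrroline-5-carboxylate reductase, both in mitochondria. Aminotransferases pass amino groups between glutamate and the acids that become aspartate or alanine, with pyridoxal phosphate as cofactor, and the aspartate aminotransferases of the cytosol and mitochondria are parts of the malate-aspartate shuttle. Several of these genes, *ASNS* above all, are known targets of the transcription factor ATF4, which is made when amino acids are short or the endoplasmic reticulum is stressed. ATF4 binds with C/EBP proteins at a composite site, the C/EBP-ATF response element.

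The promoter windows of *ASNS*, *GOT1* and *GOT2* are printed because the first and second hold this element and the third, that of the sister enzyme of *GOT1*, does not. The sequences are from RefSeq (GRCh38.p14), run 5′ to 3′ on the strand of the gene, and cover 250 bases before the annotated start and 50 after it. Capitals mark the match to the element TGATGNAAN, searched on both strands. They lie at chr7:97872359-97872658 (minus strand) for *ASNS*, chr10:99430575-99430874 (minus strand) for *GOT1* and chr16:58734267-58734566 (minus strand) for *GOT2*.
ASNS: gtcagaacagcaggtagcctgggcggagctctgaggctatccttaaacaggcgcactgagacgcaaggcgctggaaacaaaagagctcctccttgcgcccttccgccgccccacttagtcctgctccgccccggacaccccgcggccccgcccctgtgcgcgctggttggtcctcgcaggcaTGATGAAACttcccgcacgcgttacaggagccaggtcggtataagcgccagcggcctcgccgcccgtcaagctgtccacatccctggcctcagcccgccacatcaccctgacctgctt
GOT1: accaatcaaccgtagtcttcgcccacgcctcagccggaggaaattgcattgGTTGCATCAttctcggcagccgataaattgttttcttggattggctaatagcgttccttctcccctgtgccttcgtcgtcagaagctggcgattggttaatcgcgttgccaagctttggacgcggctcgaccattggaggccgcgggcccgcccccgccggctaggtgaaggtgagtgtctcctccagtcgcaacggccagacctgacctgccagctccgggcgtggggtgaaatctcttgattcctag
GOT2: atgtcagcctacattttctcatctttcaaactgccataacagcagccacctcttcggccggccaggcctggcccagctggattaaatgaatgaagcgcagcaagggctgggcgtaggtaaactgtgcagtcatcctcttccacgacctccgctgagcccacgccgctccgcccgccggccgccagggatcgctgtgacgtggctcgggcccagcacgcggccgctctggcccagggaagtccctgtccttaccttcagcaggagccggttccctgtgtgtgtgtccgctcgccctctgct

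In the *ASNS* window the match TGATGAAAC began 68 bases before the start, at 97872468 to 97872476 on chromosome 7. In the *GOT1* window the match lay on the opposite strand, as TGATGCAAC, from 199 to 191 bases before the start, at 99430815 to 99430823 on chromosome 10. RefSeq windows were found for 6 of the 8 genes, 8 windows in all, and 2 of them held the element. Of all 35116 promoter windows of this length, 3.61% held it. The second window of *ASNS*, for a start further downstream, held no match, and neither did those of *ALDH18A1*, *GLUL* and *CTH*. Windows of *PYCR1* and *GPT2* were not analysed here. A match describes the letters of the window and does not show that a factor was bound in these cells.

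The library labelled shRNA-Con held 2304184 tags on genes and the library labelled shRNA-SOX2 held 2093816. The value columns bear the abbreviations SC and S1, which were read as shRNA-Con and shRNA-SOX2. *SOX2* had 16 tags in shRNA-Con against 23 for the other, which is a ratio of 1.58 (interval 0.800 to 3.20), so that the tags do not show it lowered and the directions below are those of the libraries as labelled. Of the epithelial markers, *KRT8* had 7702 tags in shRNA-Con and 12729 in shRNA-SOX2 (log2 ratio 0.86), *KRT18* 10318 and 7887 (-0.25), *CDH1* 50 and 50 (0.14) and *EPCAM* 8 and 4. *KRT19* had 35 and 127, a ratio of 3.99. The cytokeratins thus differed between the libraries, and their part in the values below was not tested. Leukocyte markers summed to 4 and 7 tags and endothelial markers to 3 and 0. The fibroblast list summed to 46 and 52 tags, nearly all of *COL1A1* (44 and 43), with *LUM* at 2 and 9. In such bulk samples fewer cells of a type and less RNA per cell cannot be told apart.

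Of the 8 enzymes, 2 were at least 2-fold lower in the library labelled shRNA-SOX2, *PYCR1* and *ASNS*, and 0 were at least 2-fold higher. Over all genes with at least 20 tags, 13.0% were at least 2-fold lower and 10.4% at least 2-fold higher. At 1.5-fold 3 of the 7 enzymes with at least 20 tags were lower, *GOT1* with them, and 0 were higher, beside 26.6% of all genes with at least 20 tags lower and 20.5% higher. The ratio of *CTH* was also past 1.5-fold, but on 6 and 3 tags, with an interval that spans both directions. The median log2 ratio of the 8 enzymes, *CTH* included, was -0.71, and that of all genes with at least 20 tags was -0.10. *CTH* did not reach this minimum, and without it the middle value of the enzymes was that of *GPT2*, -0.56. The single log2 ratios ran from -2.24 for *PYCR1* to 0.44 for *GOT2*. These figures stand on the values by which the genes were selected, so nothing is read from the comparison of 2 of 8 with the background.

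*ASNS* has the Entrez Gene ID 440 and lies on chromosome 7 of GRCh38 from 97852118 to 97872542. In each pair of counts below the tags of shRNA-Con stand first. *ASNS* had 430 tags in shRNA-Con against 116 in the library labelled shRNA-SOX2. These are 187 and 55.4 tags per 1000000 gene tags (CPM). The control library was the higher, and the ratio of shRNA-SOX2 to shRNA-Con was 0.297 (interval 0.240 to 0.365), a log2 ratio of -1.75. Among the genes with at least 20 tags, 3.09% had a log2 ratio as low as this or lower. *ASNSD1*, a gene named for its asparagine synthetase domain, had 233 and 165 tags, a log2 ratio of -0.36. Within a library, where no scaling between libraries enters, there were 1.85 *ASNS* tags per *ASNSD1* tag in shRNA-Con against 0.703 in the library labelled shRNA-SOX2. GENCODE release 29 lists 4 pseudogenes named after *ASNS* and 2 genes that overlap it, and the sources used here do not say how shared tags were counted.

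*PYCR1* (5831; chromosome 17, 81932384 to 81942412) encodes the mitochondrial reductase that completes proline synthesis. It had 318 tags in shRNA-Con against 61 in the library labelled shRNA-SOX2, which are 138 and 29.1 CPM. Its ratio of 0.211 (interval 0.158 to 0.278; log2 ratio -2.24) was the lowest of the 8, and 1.25% of the genes with at least 20 tags had a log2 ratio that low or lower. The locus overlaps 3 other annotated genes, *MYADML2* on the same strand and a pair of antisense genes. Tags from where *MYADML2* overlaps are uncertain whether or not strand was used in counting, and those shared with the antisense genes if it was not.

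*ALDH18A1* (5832; chromosome 10, 95605929 to 95656706), the synthase that carries out the earlier step, had 154 tags in shRNA-Con against 109 in the library labelled shRNA-SOX2. Its ratio was 0.779 (interval 0.604 to 1.002; log2 ratio -0.36), and the interval just held 1. The 2 enzymes of the same route thus differed in their ratios. There were 2.06 *PYCR1* tags per *ALDH18A1* tag in shRNA-Con against 0.560 in the library labelled shRNA-SOX2, a 3.68-fold difference (interval 2.51 to 5.43) that does not depend on scaling between the libraries. *PYCRL*, a cytosolic paralog of *PYCR1*, had 46 tags in shRNA-Con and 54 in shRNA-SOX2 (log2 ratio 0.37). There were 6.91 *PYCR1* tags per *PYCRL* tag in shRNA-Con and 1.13 in shRNA-SOX2.

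Proline breakdown and its neighbours were covered more thinly. *PRODH*, the first enzyme of proline oxidation, had 6 tags in shRNA-Con against 3 in the library labelled shRNA-SOX2, and thus a ratio of 0.550 (interval 0.0890 to 2.58). *ALDH4A1*, which oxidises pyrroline-5-carboxylate back to glutamate, had 15 and 0 tags, a ratio with an interval from 0 to 0.307. With the count of 0 set to the limit of 3 tags per library it was 4.54-fold lower. *OAT*, which links ornithine to the same intermediate, had 109 and 88 tags (log2 ratio -0.17). *ARG2*, the mitochondrial arginase, had 31 and 12 tags (-1.23) and was the single gene of the list of proline, ornithine and arginine genes that had at least 20 tags and was at least 2-fold lower. Of the 10 genes on that list 6 had at least 20 tags, 0 were at least 2-fold higher, and the median log2 ratio was -0.25. Of all genes with at least 20 tags, 13.0% were at least 2-fold lower and 10.4% at least 2-fold higher.

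*GLUL* (2752; chromosome 1, 182381704 to 182392206), glutamine synthetase, joins ammonia to glutamate. It had 36 tags in shRNA-Con against 33 in the library labelled shRNA-SOX2, which are 15.6 and 15.8 CPM. The ratio was 1.01 with an interval from 0.610 to 1.66, so that a difference of this range was not detectable at this depth. Its log2 ratio was 0.01 with gene tags and -0.10 with clean tags, so no direction is given. GENCODE lists 4 pseudogenes named after *GLUL*, and its tags are uncertain to that extent. Of the other glutamine and glutamate genes, *GLUD1*, glutamate dehydrogenase, had 261 and 342 tags (log2 ratio 0.53). The 4 genes of that list with at least 20 tags all had log2 ratios above 0, between 0.39 and 0.76. Of all genes with at least 20 tags, 55.1% had a log2 ratio below 0. In this list 0 were at least 2-fold lower and 0 at least 2-fold higher, beside the 13.0% and 10.4% of all genes.

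Enzymes that spend the amide group of glutamine, as *ASNS* does, made up a list of 9, all with at least 20 tags. Of these, 2 were at least 2-fold lower and 0 at least 2-fold higher, beside the 13.0% and 10.4% of all genes. The median log2 ratio of the list was -0.52, and with TMM factors or the median ratio 1 was higher. *CTPS*, CTP synthetase, had 433 tags in shRNA-Con against 62 in the library labelled shRNA-SOX2 (log2 ratio -2.67), a lower ratio than that of *PYCR1*. Its paralog *CTPS2* had 53 and 92 tags (0.93), and its ratio of 1.91 had an interval from 1.35 to 2.73. *CAD*, which starts pyrimidine synthesis, had 280 and 115 tags (-1.15). In the list of asparagine and aspartate genes, *ASS1*, argininosuccinate synthetase, had 45 and 13 tags (-1.65) and *ADSL*, adenylosuccinate lyase, had 142 and 52 (-1.31). *ADSSL1*, an adenylosuccinate synthetase, had 8 and 18 (1.31) on few tags. The other 4 of the 7 genes of this list with at least 20 tags lay within 2-fold. Its 2 lower genes and 1 higher gene stand beside the 13.0% and 10.4% of all genes.

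**Figure D1:**
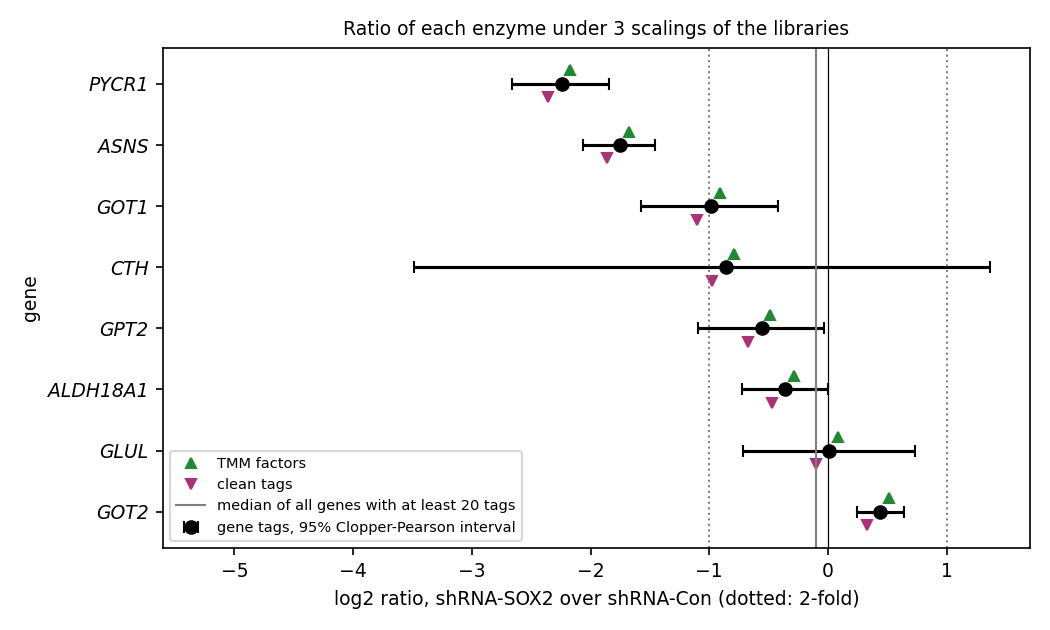
Log2 ratio of shRNA-SOX2 over shRNA-Con for each enzyme with gene tags (black points, bars for the 95% Clopper-Pearson interval) and with TMM factors and clean tags as other scalings (triangles). The gray line is the median of all genes with at least 20 tags, and the intervals of *PYCR1* and *ASNS* lie wholly beyond the dotted 2-fold line.

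The aspartate aminotransferases, the cytosolic *GOT1* and the mitochondrial *GOT2*, had ratios on opposite sides of 1. *GOT1* (2805; chromosome 10, 99396870 to 99431569) had 85 tags in shRNA-Con against 39 in the library labelled shRNA-SOX2, and thus a ratio of 0.505 (interval 0.336 to 0.746). *GOT2* (2806; chromosome 16, 58707131 to 58734357) had 382 and 471 tags, a ratio of 1.36 (interval 1.18 to 1.56). Thus the control library was higher for *GOT1* and lower for *GOT2*, and their intervals did not meet. In CPM *GOT1* had 36.9 and 18.6, and *GOT2* had 166 and 225. There were 0.223 *GOT1* tags per *GOT2* tag in shRNA-Con against 0.0828 in the library labelled shRNA-SOX2, a 2.68-fold difference (interval 1.77 to 4.13) on which the scaling has no bearing. The log2 ratio of *GOT1*, -0.99, was just short of 2-fold and passed it with clean tags (-1.10). GENCODE lists 4 pseudogenes named after *GOT2*, so its tags are uncertain to that extent.

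The malate dehydrogenases, which serve the same shuttle as the aspartate aminotransferases, also differed between compartments, though in the other sense. The cytosolic *MDH1* had 1086 tags in shRNA-Con against 2001 in the library labelled shRNA-SOX2 (log2 ratio 1.02), and the mitochondrial *MDH2* had 1171 and 660 (-0.69), a gene given here as the partner of *MDH1* and chosen after its values were seen. The ratio of *MDH1* to *MDH2* tags was 0.927 in shRNA-Con against 3.03 in the library labelled shRNA-SOX2. Of the 7 genes on the shuttle list, 6 had at least 20 tags. In this list 1 was at least 2-fold higher (0 with clean tags) and 0 at least 2-fold lower, beside the 10.4% and 13.0% of all genes.

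*GPT2* (84706; chromosome 16, 46884378 to 46931297), the mitochondrial alanine aminotransferase, had 81 tags in shRNA-Con against 50 in the library labelled shRNA-SOX2. These are 35.2 and 23.9 CPM. Its ratio was 0.679 (interval 0.468 to 0.978; log2 ratio -0.56), and the interval held 1 with TMM factors (0.492 to 1.03). *GPT*, the cytosolic form, was listed with the other transaminases but was not found among the genes of the table, so it has no value here.

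Of the 14 other transaminases, 7 had at least 20 tags. Among them 1 was at least 2-fold lower and 0 at least 2-fold higher, beside the 13.0% and 10.4% of all genes. The lower one was *PSAT1*, phosphoserine aminotransferase of serine synthesis, with 1565 tags in shRNA-Con against 463 in the library labelled shRNA-SOX2 (log2 ratio -1.62). The branched-chain aminotransferases *BCAT1*, which is cytosolic, and *BCAT2*, which is mitochondrial, had 228 and 131 tags (-0.66) and 132 and 115 tags (-0.06). The log2 ratio was below 0 in 6 of the 7 (5 with TMM factors or the median ratio, *BCAT2* being the one that crossed 0), against 55.1% of all genes with at least 20 tags, and their median was -0.51.

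*CTH* (1491; chromosome 1, 70411218 to 70439851), cystathionine gamma-lyase, releases cysteine from cystathionine and makes none of the amino acids of the other enzymes, though it shares the cofactor of the aminotransferases. It had 6 tags in shRNA-Con against 3 in the library labelled shRNA-SOX2. The ratio of 0.550 had an interval from 0.0890 to 2.58, which spans both directions, so no difference was detectable at this depth. *CBS*, which makes the cystathionine that *CTH* cleaves, had 142 and 40 tags (log2 ratio -1.69). *MPST*, a mercaptopyruvate sulfurtransferase, had 103 and 45 (-1.06). Of the 18 sulfur amino acid genes listed, 14 had at least 20 tags, *CBS* and *MPST* were the 2 at least 2-fold lower, and 0 were at least 2-fold higher. The shares of all genes with at least 20 tags were 13.0% lower and 10.4% higher. With TMM factors or the median ratio the counts of this list were 1 lower and 1 higher.

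ATF4 and proteins that bind beside it or lie downstream of it were listed from general knowledge, with earlier results of these data known. *ATF4* itself had 824 tags in shRNA-Con against 548 in the library labelled shRNA-SOX2 (log2 ratio -0.45). The C/EBP genes *CEBPB* and *CEBPG* had 1363 and 461 tags (-1.43) and 582 and 104 tags (-2.35). *DDIT3*, a C/EBP-family stress factor, had 134 and 29 tags (-2.07), and *TRIB3*, a pseudokinase that ATF4 induces, had 3545 and 178 (-4.18). Of these 6 genes, 4 were at least 2-fold lower and 0 at least 2-fold higher. The shares of all genes with at least 20 tags were 13.0% and 10.4%. Since the list was chosen with earlier results known, nothing is read from this comparison. Their part in the values of *ASNS* and *GOT1* was not tested.

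Over the 8 lists together, 59 of 82 genes had at least 20 tags. Of the 59, 12 were at least 2-fold lower and 2 at least 2-fold higher, beside the 13.0% and 10.4% of all genes above. Among the 12 lower genes, 4 were of the list of *ATF4* and partners. The lists were chosen with earlier results of these data known, so nothing is read from this comparison. The median log2 ratio of the 59 genes was -0.36. With TMM factors or the median ratio 4 were at least 2-fold higher, and with clean tags 1. The shares of all genes were then 11.7%, 11.6% and 8.6%.

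The annotation deposited with the table, which played no part in selecting the genes, attached 8 terms to at least 3 of them. The term cellular amino acid biosynthetic process was attached to *ASNS*, *PYCR1*, *ALDH18A1* and *CTH*. Among the other genes with this term, 15 had at least 20 tags, of which 4 (26.7%) were at least 2-fold lower and 1 (6.67%) at least 2-fold higher, beside the 13.0% and 10.4% of all genes. Pyridoxal phosphate binding was attached to *GOT1*, *GOT2*, *GPT2* and *CTH*, and of the 29 other genes with this term and at least 20 tags 3 (10.3%) were at least 2-fold lower and 2 (6.90%) at least 2-fold higher. Biosynthetic process was attached to *GOT1*, *GOT2* and *GPT2*, and of the 27 others 3 (11.1%) were at least 2-fold lower and 4 (14.8%) at least 2-fold higher. The term mitochondrion was attached to *PYCR1*, *ALDH18A1*, *GLUL* and *GOT2*, and 10.9% of 799 others were at least 2-fold lower and 6.38% at least 2-fold higher. For the other 4 terms, ATP binding, nucleotide binding, cytoplasm and cytosol, between 12.8% and 14% of the others were at least 2-fold lower and between 7.56% and 10.1% higher. By this annotation the mitochondrial enzymes held both the lowest and the highest ratio of the 8. These terms share genes with the lists above and are no separate evidence.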

How the data were processed

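The samples were 1 library each of A549-H1tetO-shRNA-SOX2 and A549-H1tetO-shRNA-Con cells. The authors deposited tag counts per Entrez Gene ID, made without normalization from oligo(dT)-purified mRNA, and TPM values, which relate each count to all clean tags sequenced. The labels name hg19, and the aligner and annotation are not given in the sources used here. The authors' log2 ratio, p-value and FDR columns were not used.

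Each count was divided by its library's sum of gene tags, log2 ratios set shRNA-SOX2 over shRNA-Con, and a count under 3 tags was set to 3. A difference counted from 2-fold on. Intervals are 95% Clopper-Pearson intervals of the ratio, or exact conditional intervals for tag ratios of gene pairs. The 8 genes and the lists of related genes were chosen with earlier results of these data known, so no test was run. Named were the 8 genes, *SOX2*, *ATF4*, listed genes past 2-fold with at least 20 tags, and close paralogs or partners, some of which are not reported here. No gene was named as most alike, since the libraries give 1 ratio a gene. Deposited annotation terms carried by at least 3 of the 8 genes were taken after the values were seen. Gene positions are from GENCODE release 29 (GRCh38), and 6 of the 8 genes matched the RefSeq promoter table. The alternatives were other scalings, a 1.5-fold limit, other minimum tags, and 0.5 tags added to each count. Tools were Python 3.11.15 with scipy 1.17.1, edgeR 4.0.16 for TMM factors and DESeq2 1.42.0 for the median ratio under R 4.3.3, and the steps were tested on simulated data.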

Additional observations from a re-analysis of the deposited data

How the results depend on the processing

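No paired analysis was possible because there was a single library of either line, and none could be left out. The 32 recomputed log2 ratios of the 8 enzymes, under clean tags, TMM factors, the median ratio or 0.5 tags added, all stayed within the counting intervals of the values reported. For the scalings this could not come out otherwise. Each moves every gene by a single amount (0.07, 0.07 or -0.11), which is smaller than the reach of any of these intervals. *PYCR1* and *ASNS* were at least 2-fold lower under each of these settings, with at least 100 tags required and with no minimum. With 1.5-fold as the limit 4 of the 8 enzymes were lower, *GOT1* and, on 9 tags with an interval spanning both directions, *CTH* being added. Of the genes with at least 20 tags, which leave *CTH* out, 26.6% were lower and 20.5% higher. Of the 59 genes on the 8 related lists with at least 20 tags, 20 were then lower and 8 higher, against 12 and 2 at 2-fold. At 2-fold, 4 were higher by TMM factors, 4 by the median ratio, 1 with clean tags and 1 with at least 100 tags. Under that last minimum *ASS1*, *ARG2* and *ADSSL1* left the counts. The shares of all genes higher at these settings were 11.7%, 11.6%, 8.6% and 7.55%, in the same order. Clean tags moved the median of all genes by -0.11 on the log2 scale. The interval of *GPT2* lay below 1 with gene tags and clean tags and held 1 with the other scalings, and that of *ALDH18A1* lay below 1 with clean tags alone. Depth limits *CTH* and *GLUL*, with 9 and 69 tags in all.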
